A study of Mus musculus with 6 samples.

Results

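Glutathione, thioredoxin and NRF2 target genes were followed in mouse beige adipocytes after a treatment meant to delete Tle3, a transcriptional co-repressor gene. The group was set by name and held 42 genes: the stress-responsive transcription factors NRF1 and NRF2 with the sensor KEAP1, the enzymes that make, recycle and use glutathione, the thioredoxin and glutaredoxin systems, NRF2 targets, the pentose phosphate pathway and the methionine sulfoxide reductases. Of these, 41 were found among the 13962 genes of the count table by their gene name and 1, Gsta3, is not analysed here. All 41 passed the filter on low counts. The cells came from C57BL/6 inguinal white fat. They were stromal preadipocytes immortalized with the large T antigen that carried floxed Tle3 alleles and CreERT2, a Cre recombinase that tamoxifen activates. Every library came from such cells after differentiation with insulin (20 nM), T3 (1 nM), rosiglitazone (1 uM) and, for the first 2 days, isobutylmethylxanthine (0.5 mM), dexamethasone (0.5 uM) and indomethacin (0.125 mM). Cells labelled TLE3 KO received 4-hydroxytamoxifen (500 nM) for 24 hours on day 4 (n = 3 libraries, TLE3 KO 1 to 3) and the controls received ethanol (n = 3, control 1 to 3), and all were harvested on day 10. Both groups carried the floxed alleles and CreERT2, and no cells without Cre received tamoxifen, so effects of the compound, of Cre activity and of the deletion cannot be told apart. The labels do not say that replicates were separate cultures, so p-values measure the spread between libraries, which may be technical.

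Glutathione is a tripeptide made by glutamate-cysteine ligase and glutathione synthetase. It donates electrons to peroxidases and transferases and is recycled by glutathione reductase, while thioredoxin and its reductase form a parallel system. Both draw their electrons from NADPH, which the oxidative branch of the pentose phosphate pathway supplies. NRF2 is held low by KEAP1 and, when electrophiles or oxidants modify KEAP1, switches on genes of all these systems through antioxidant response elements in their promoters. In fat cells that oxidize much fuel, these systems remove the peroxides and reactive aldehydes that mitochondria and lipid produce.

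Promoter windows were examined because 2 of the 3 genes that fell, Gclm and Txnrd1, are textbook NRF2 targets. The windows, from RefSeq on build GRCm38.p6, run from 250 bases before to 50 bases after an annotated gene start. The core of the antioxidant response element was searched as TGACNNNGC on both strands, where N is any base. A window was found for 36 of the 41 tested genes, of which 9 (25.0%) had at least 1 match in a window, and over all 27025 genes with a window the share was 14.0%. The members have more annotated starts per gene, and per window the share was 9 of 54 (16.7%), beside 12.4% of all 32851 windows. The 9 were Nfe2l2, Srxn1, Gstm5, Gclm, Pgd, Mgst1, Txnrd1, G6pdx and Msrb2. Below are the windows of Gclm (chr3:122245307-122245606, + strand), of 1 of 3 annotated starts of Txnrd1 (chr10:82858956-82859255, + strand) and of Srxn1 (chr2:152105274-152105573, + strand), shown because the first pair fell and Srxn1, another textbook NRF2 target, lay just outside the threshold; capitals mark the match, which in all 3 lies on the opposite strand and is therefore printed as the reverse complement of the motif. It begins 134 and 92 bases before the gene start in Gclm and Txnrd1 and at base 29 of the gene in Srxn1, counting the gene's first base as 1.
Gclm: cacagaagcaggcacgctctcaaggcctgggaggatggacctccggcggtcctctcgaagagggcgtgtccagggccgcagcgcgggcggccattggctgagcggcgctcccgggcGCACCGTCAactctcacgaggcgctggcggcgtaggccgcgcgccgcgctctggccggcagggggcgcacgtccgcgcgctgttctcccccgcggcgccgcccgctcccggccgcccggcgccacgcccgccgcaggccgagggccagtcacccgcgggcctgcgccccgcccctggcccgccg
Txnrd1: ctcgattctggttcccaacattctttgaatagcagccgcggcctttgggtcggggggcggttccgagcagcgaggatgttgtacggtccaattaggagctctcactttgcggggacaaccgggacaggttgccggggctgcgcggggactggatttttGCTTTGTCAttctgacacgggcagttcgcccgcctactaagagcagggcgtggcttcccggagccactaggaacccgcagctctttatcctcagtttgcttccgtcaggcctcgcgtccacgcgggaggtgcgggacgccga
Srxn1: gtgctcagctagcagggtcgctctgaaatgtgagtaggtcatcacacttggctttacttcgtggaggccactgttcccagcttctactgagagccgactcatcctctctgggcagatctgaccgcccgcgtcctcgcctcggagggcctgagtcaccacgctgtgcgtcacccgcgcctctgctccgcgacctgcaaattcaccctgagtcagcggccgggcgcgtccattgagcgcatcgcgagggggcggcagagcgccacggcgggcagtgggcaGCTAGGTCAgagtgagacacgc
A match is a string of letters and not a shown binding site. Other forms of the element were not searched, so windows without a match, or bases outside the capitals, may still hold one. The window of Nqo1, also a textbook NRF2 target, held no match. The fall of Gclm and Txnrd1 prompted the search, and Srxn1 was picked for its place near the threshold. The matches in these 3 windows therefore say nothing further about which genes fell.

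Total counts per library ran from 14606228 to 15933996 in the libraries labelled TLE3 KO and from 14832434 to 19294632 in the controls. Tle3 itself was higher in every library labelled TLE3 KO, at 286.9, 288.9 and 294.2 CPM (read counts scaled to the size of the library), against 151.4, 151.3 and 152.1 CPM in the controls. Reads from exons outside the floxed segment enter these whole-gene counts, which therefore cannot check the labels on which every direction given here rests. Of the fat cell markers, Adipoq stood at 625.9 to 736.6 CPM in the libraries labelled TLE3 KO and 521.2 to 615.1 CPM in controls. Ucp1 stood at 94.3 to 108.5 CPM in the libraries labelled TLE3 KO and 61.6 to 77.6 CPM in controls. Of 9 adipocyte markers 3 rose and 0 fell, and Adipoq was not called. Lpl lay lower in every library labelled TLE3 KO than in any control (log2 fold change −0.16), and was not called either. Macrophage RNA was near the floor: 3 of 7 markers were analysed, with sums of 5.16 to 7.26 CPM in the libraries labelled TLE3 KO and 4.87 to 6.58 CPM in controls, while the defining markers Ptprc and Adgre1 are not analysed here. The summed level of 9 adipocyte markers ran from 12553 to 14446 CPM in the libraries labelled TLE3 KO and from 11091 to 13286 CPM in controls, with control 3 lowest; the sum of 11 fibroblast and preadipocyte markers ran from 8151 to 8557 CPM in the libraries labelled TLE3 KO and from 8378 to 9604 CPM in controls, with control 3 highest. In bulk RNA, fewer cells of a type and less RNA per cell cannot be told apart.

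Measured per transcript length, the redox genes covered a wide range of levels. The authors' FPKM values, rounded to whole numbers, put the cytosolic thioredoxin gene Txn1 highest, with means over libraries of 195.3 in the libraries labelled TLE3 KO and 181.7 in controls. Txnip, whose product binds and inhibits thioredoxin, followed at means of 187.0 FPKM in the libraries labelled TLE3 KO and 175.0 FPKM in controls. Mgst1, a membrane-bound glutathione transferase, averaged 184.3 FPKM in the libraries labelled TLE3 KO and 165.3 FPKM in controls. The FPKM ranges of these top genes overlapped over the 6 libraries, so their order is not resolved. At the other end Mgst2 was listed at 0 FPKM in all 6 libraries and rested on counts near 1 CPM.

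**Figure D1:**
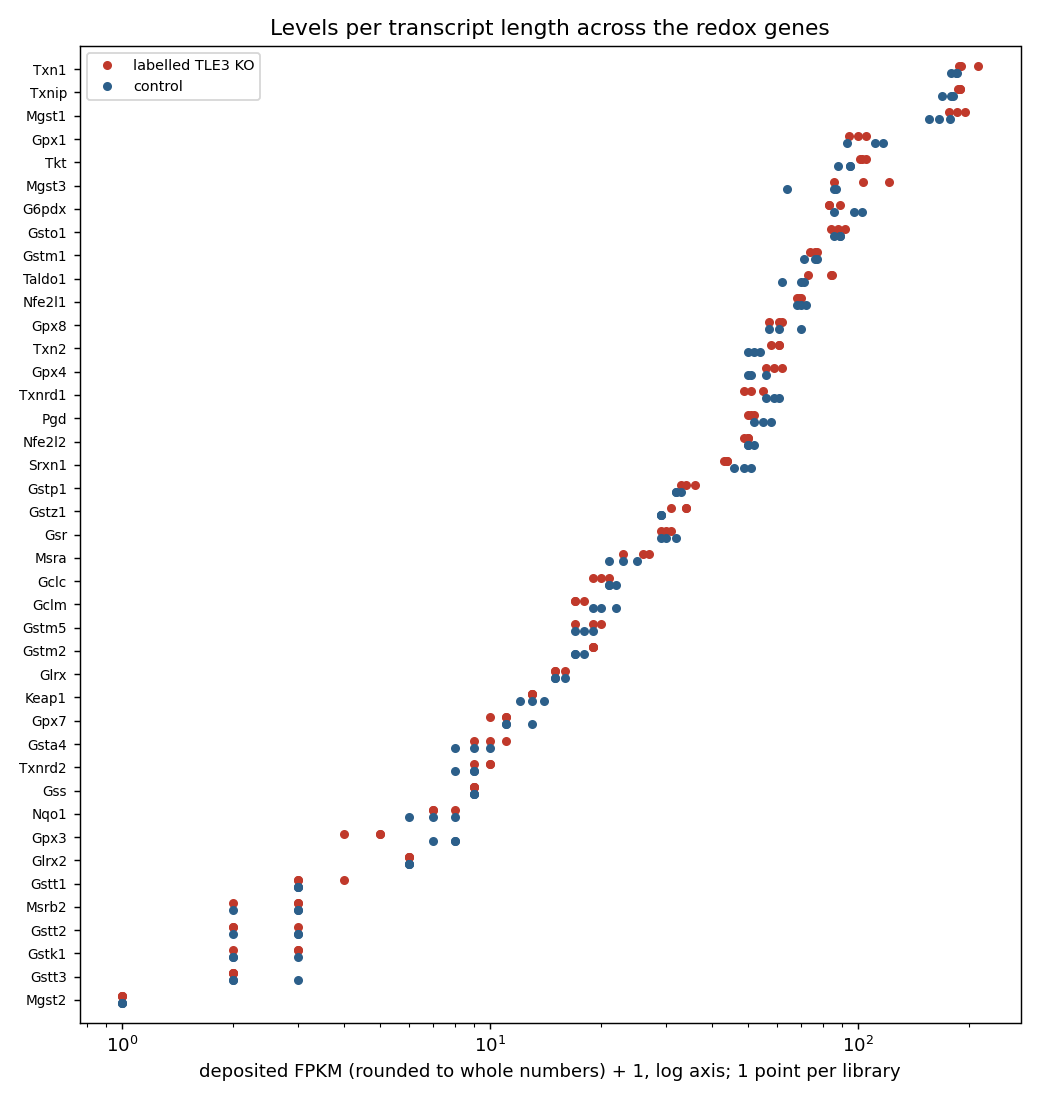
Deposited FPKM (rounded to whole numbers, 1 added, log axis) of 41 redox genes, ordered by their mean over 6 libraries; each point is 1 library. Txn1, Txnip and Mgst1 lie at the top and Mgst2 is listed at 0 in every library.

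The share of these genes that was called lay near that of all genes, and the calls went both ways. Of 41 tested, 3 rose (Taldo1, Txn2 and Gstz1) and 3 fell (Gpx3, Gclm and Txnrd1) by edgeR's quasi-likelihood test at an adjusted p under 0.05 over all genes. That is 14.6% of the members, beside 12.3% of all 13192 genes tested; the share that rose was 6.91% and the share that fell 5.44% over all genes. DESeq2 called 4 of the same 6 members and also Tkt, so that 3 members rose and 2 fell. It called 9.96% of all genes it tested. With limma-voom 5 of the 6 were called, of which 3 rose and 2 fell, beside 12.2% of all genes. The median log2 fold change was 0.03 for the members and −0.002 for all genes. The libraries of the groups did not overlap in CPM for 16 of the 41 genes (39.0%), with 10 higher and 6 lower in the libraries labelled TLE3 KO, beside 31.8% of all genes (16% higher and 15.8% lower). Of the 35 genes that were not called, 10 had an unadjusted edgeR p under 0.05. The matching share over all uncalled genes was not counted, so this number does not set the group apart. Without TLE3 KO 2 or control 1, 0 members rose. That number was 1 without TLE3 KO 3 or control 3 and 6 without control 2. Members that fell numbered 2 without TLE3 KO 1 or control 3 and 1 in each of the other such fits. Over all genes, 962 were called without TLE3 KO 2, 976 without control 1, 621 without TLE3 KO 3 and 1068 without control 3. Without control 2 that total was 1895 and without TLE3 KO 1 it was 1352, beside 1629 with all 6 libraries.

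**Figure D2:**
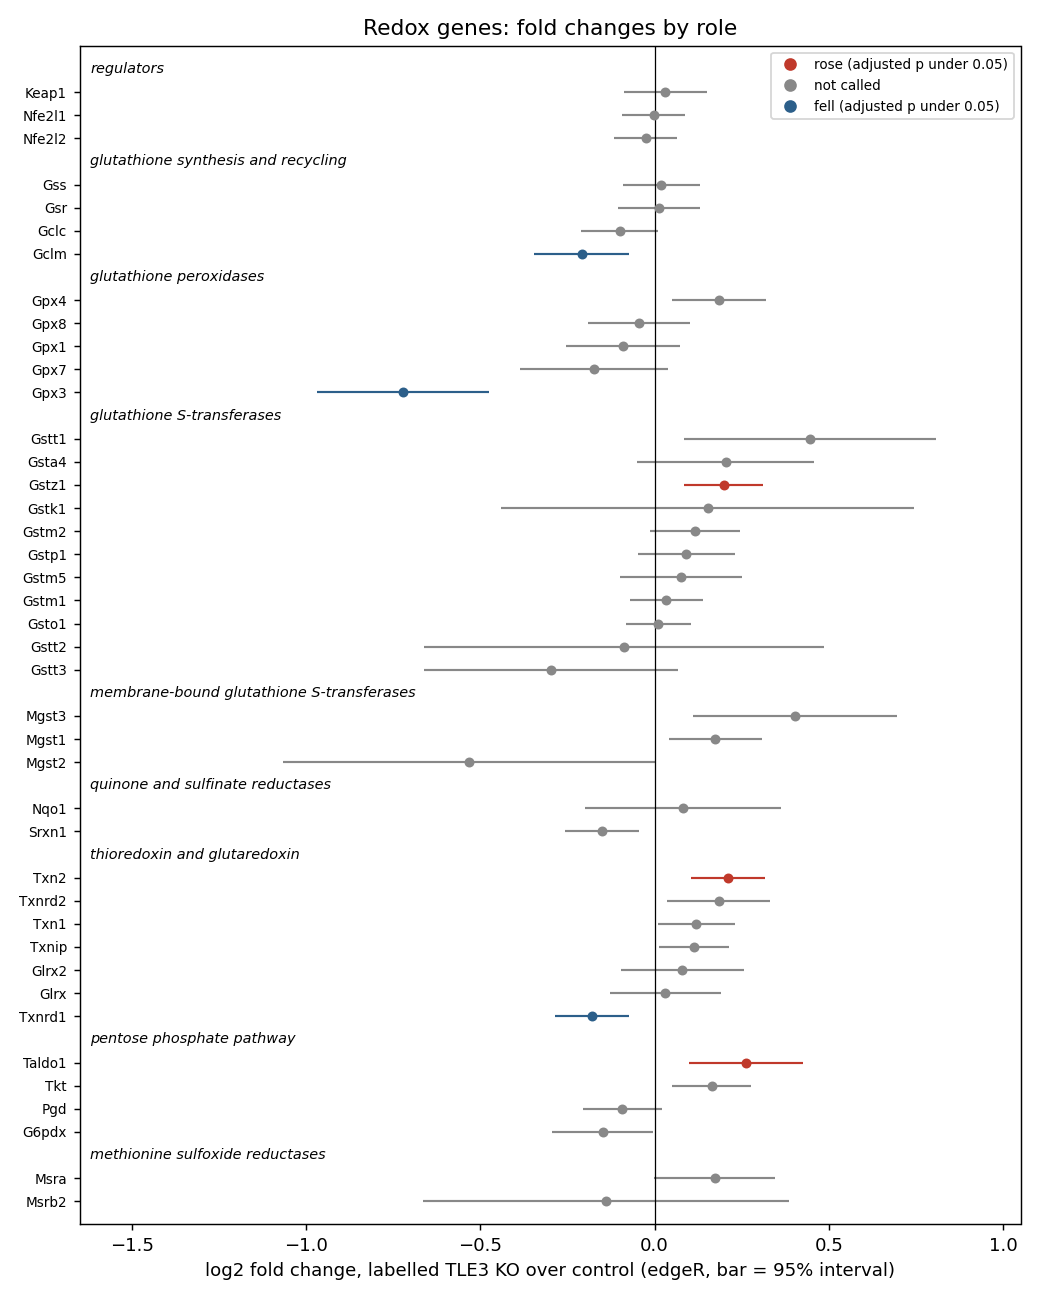
Log2 fold change of each of 41 redox genes, libraries labelled TLE3 KO over controls (n = 3 each), with its 95% interval from edgeR, grouped by role. Red points rose, blue points fell and grey points were not called; Gpx3 is farthest from 0, at −0.72, and the 3 regulators lie close to 0.

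The genes of the sensor and its transcription factors had nearly equal levels in both groups. Nfe2l2, which encodes NRF2, stood at 184.3, 187.8 and 183.5 CPM in the libraries labelled TLE3 KO and 194.6, 188.7 and 182.2 CPM in controls. Its log2 fold change was −0.03 (95% interval −0.12 to 0.06; edgeR adjusted p 0.739). The groups overlapped; KEAP1 acts on the NRF2 protein, which was not measured. Keap1 stood at 53.7, 55.3 and 54.2 CPM in the libraries labelled TLE3 KO and 57.2, 50.7 and 51.8 CPM in controls (log2 0.03, 95% interval −0.09 to 0.15). Nfe2l1, whose product NRF1 is tethered to the endoplasmic reticulum and drives proteasome genes, averaged 373.6 ± 3.10 CPM in the libraries labelled TLE3 KO and 374.4 ± 12.7 CPM in controls (SD, n = 3 each; log2 −0.003, 95% interval −0.09 to 0.09).

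In glutathione synthesis the modifier subunit of the first enzyme was lower. Gclm, which lowers the feedback inhibition of glutamate-cysteine ligase, stood at 86.0, 84.6 and 82.6 CPM in the libraries labelled TLE3 KO, against 91.5, 108.0 and 93.7 CPM in controls. Every library labelled TLE3 KO lay below every control, and control 2 stood highest. Gclm fell by 0.21 on the log2 scale (SE 0.062, edgeR adjusted p 0.0494), a call at the edge of the threshold. It was lost without any 1 library (adjusted p 0.0514 to 0.175) and with DESeq2 (0.0551), limma-voom (0.0526), DESeq2 size factors (0.0540) or no filter (0.0502). Exons of Gclm also overlap other annotated genes on either strand, and the authors' strand setting is not given in the sources used here. Its catalytic partner Gclc stood at 66.8, 64.2 and 61.1 CPM in the libraries labelled TLE3 KO and 66.7, 71.7 and 67.9 CPM in controls, with overlapping groups (log2 −0.10, 95% interval −0.21 to 0.01; adjusted p 0.226). Glutathione synthetase (Gss, log2 0.02) and glutathione reductase (Gsr, log2 0.01) had 95% intervals from −0.09 to 0.13 and from −0.10 to 0.13.

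Among the glutathione peroxidases, Gpx3 had the largest difference of all 41 genes. Gpx3 encodes the secreted plasma peroxidase and stood at 7.55, 6.36 and 7.77 CPM in the libraries labelled TLE3 KO, against 10.8, 12.0 and 12.9 CPM in controls. The highest library labelled TLE3 KO lay below the lowest control. Gpx3 fell by 39.4%, or −0.72 on the log2 scale (edgeR adjusted p 0.00272, SE 0.112), with a 95% interval from −0.97 to −0.48. It was the 1 member called in each of the 6 fits without a library, with adjusted p from 0.00530 to 0.0137, and its call also held with DESeq2 and limma-voom. Stromal markers moved beside it: of 11 fibroblast and preadipocyte markers 4 fell and 1 rose, among them the matrix proteoglycan genes Dcn (log2 −1.01) and Lum (log2 −1.04), and Thy1 (−0.42) and Pdgfra (−0.38), while Dlk1 rose (0.72). Their part in the fall of Gpx3 was not tested.

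The other peroxidase genes were not called. Gpx4, which reduces lipid peroxides within membranes, stood at 91.8, 103.4 and 98.6 CPM in the libraries labelled TLE3 KO and 84.1, 93.3 and 81.4 CPM in controls (log2 0.18, 95% interval 0.05 to 0.32; edgeR adjusted p 0.0745). The groups overlapped through TLE3 KO 1 and control 2, and without control 2 Gpx4 passed the threshold (adjusted p 0.0191). Of its transcript's 50-base stretches, 61.7% also occur in transcripts of other genes, a pseudogene among them, so its count is uncertain. Gpx1, the main cytosolic enzyme, averaged 84.2 ± 4.38 CPM in the libraries labelled TLE3 KO and 89.5 ± 9.91 CPM in controls (SD, n = 3 each). Gpx7 and Gpx8, which sit in the endoplasmic reticulum, had log2 fold changes of −0.17 (95% interval −0.39 to 0.04) and −0.05 (−0.19 to 0.10). Per transcript length Gpx3 was the lowest of the 5, at mean FPKM of 3.67 in the libraries labelled TLE3 KO and 6.67 in controls, while Gpx1, the highest, averaged 98.7 FPKM in the libraries labelled TLE3 KO and 106.0 FPKM in controls.

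Of 11 tested soluble glutathione transferases, 1 rose. Gstz1, the maleylacetoacetate isomerase of tyrosine breakdown, stood at 53.9, 55.8 and 50.2 CPM in the libraries labelled TLE3 KO, against 45.8, 47.2 and 46.5 CPM in controls. There was no overlap between groups, and the controls lay close together. Gstz1 rose 1.15-fold (log2 0.20, SE 0.051; edgeR adjusted p 0.0286). It was no longer called with DESeq2 (adjusted p 0.0888), nor without TLE3 KO 1, TLE3 KO 2, control 1 or control 3 (adjusted p 0.0628 to 0.112). Exons of Gstz1 overlap those of Pomt2 on the other strand, which had a log2 fold change of −0.02 (adjusted p 0.889).

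The abundant members of this family were close to equal between groups. Gsto1 averaged 171.9 ± 5.87 CPM in the libraries labelled TLE3 KO and 170.6 ± 3.81 CPM in controls (SD, n = 3 each; log2 0.01, 95% interval −0.08 to 0.10), and Gstm1 averaged 104.9 ± 3.51 CPM in the libraries labelled TLE3 KO and 102.4 ± 4.16 CPM in controls (log2 0.03, 95% interval −0.07 to 0.14). Gsta4, known for conjugating the lipid aldehyde 4-hydroxynonenal in fat, stood at 7.92, 8.64 and 9.58 CPM in the libraries labelled TLE3 KO and 7.61, 6.77 and 8.17 CPM in controls. Its groups overlapped (log2 0.20, 95% interval −0.05 to 0.46; adjusted p 0.284). Gstm2 (log2 0.12), Gstp1 (0.09) and Gstt1 (0.45) did not overlap between groups, with the libraries labelled TLE3 KO higher, and Gstt3 did not overlap with them lower (−0.30); none of the 4 passed the threshold (adjusted p 0.103 to 0.382). For Gstt1, at 3.62, 3.39 and 4.29 CPM in the libraries labelled TLE3 KO and 3.05, 2.44 and 2.76 CPM in controls, the interval ran from 0.09 to 0.81. Gstm5 had a log2 fold change of 0.08 (95% interval −0.10 to 0.25). Gstk1, of mitochondria and peroxisomes, and Gstt2 rested on so few reads that their intervals spanned −0.44 to 0.74 and −0.66 to 0.49. Counts of Gstp1, Gstt3, Gstm1 and Gstm2 are uncertain, since 62.3%, 26.0%, 23.2% and 9.36% of their 50-base stretches occur in transcripts of other genes. Gstt3 also shares exons on its own strand with Gm20441, which rose (log2 0.37, edgeR adjusted p 0.00876), opposite in sign to Gstt3.

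None of the 3 membrane-bound transferases was called. Mgst3, which acts on lipid hydroperoxides, stood at 93.0, 132.6 and 113.4 CPM in the libraries labelled TLE3 KO and 94.6, 93.7 and 68.5 CPM in controls. TLE3 KO 1 lay within the controls and control 3 was lowest. Its log2 fold change was 0.40 (95% interval 0.11 to 0.70; edgeR adjusted p 0.0722), and it passed the threshold without TLE3 KO 1 (adjusted p 0.0252). Mgst1, which protects membranes from lipid peroxides, stood at 350.1, 394.6 and 375.1 CPM in the libraries labelled TLE3 KO and 331.4, 354.9 and 306.6 CPM in controls (log2 0.17, adjusted p 0.0863, and 0.0249 without control 2). The same library, control 3, was lowest for both genes and for the summed adipocyte markers, whose part in these values was not tested. Mgst2 stood at 0.991 ± 0.118 CPM in the libraries labelled TLE3 KO and 1.42 ± 0.245 CPM in controls (SD, n = 3 each), with no overlap between groups and a log2 fold change of −0.53 (95% interval −1.07 to 0.002).

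The quinone reductase Nqo1 and the sulfiredoxin Srxn1, both classical NRF2 targets, were not called. Nqo1, often used to read NRF2 activity, stood at 10.97, 9.47 and 9.24 CPM in the libraries labelled TLE3 KO and 9.70, 7.65 and 10.5 CPM in controls. The groups overlapped, with a log2 fold change of 0.08 (95% interval −0.20 to 0.36; edgeR adjusted p 0.731). Srxn1, which repairs overoxidized peroxiredoxins, stood at 117.9, 121.4 and 122.5 CPM in the libraries labelled TLE3 KO and 126.4, 141.3 and 134.0 CPM in controls. All 3 libraries labelled TLE3 KO lay below the controls, and the log2 fold change was −0.15 (95% interval −0.26 to −0.04; adjusted p 0.0644). With library size as the sole scaling Srxn1 passed the threshold (adjusted p 0.0382).

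In the thioredoxin system the mitochondrial thioredoxin rose and the cytosolic reductase fell. Txn2, the thioredoxin of the mitochondrial matrix, stood at 238.8, 253.4 and 255.3 CPM in the libraries labelled TLE3 KO, against 215.4, 226.1 and 204.7 CPM in controls. All 3 libraries labelled TLE3 KO lay above the controls. Txn2 rose 1.16-fold (log2 0.21, SE 0.048; edgeR adjusted p 0.0172), and its call was lost without TLE3 KO 2, TLE3 KO 3 or control 1 (adjusted p 0.0603 to 0.0969). Txnrd1, the cytosolic reductase and an NRF2 target, stood at 215.1, 202.6 and 195.8 CPM in the libraries labelled TLE3 KO, against 221.4, 234.5 and 239.4 CPM in controls. Here too the groups did not overlap, with TLE3 KO 1 and control 1 closest. Txnrd1 fell by 0.18 on the log2 scale (SE 0.048, adjusted p 0.0338), and its call was lost in each fit without a library except that without TLE3 KO 1 (adjusted p 0.0520 to 0.169). Thermogenic markers moved beside them, and 5 of 7 rose. Their summed level was 888 to 1039 CPM in the libraries labelled TLE3 KO and 536 to 658 CPM in controls. Of 5 beige-selective markers, 4 were tested, of which 1 rose and 0 fell. Their median log2 fold change was −0.17. The part of either marker set in these changes was not tested.

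Their partners were not called. Txn1 stood at 197.5, 222.8 and 199.8 CPM in the libraries labelled TLE3 KO and 192.8, 187.9 and 189.7 CPM in controls (log2 0.12, 95% interval 0.01 to 0.23; edgeR adjusted p 0.147). Txnrd2, the mitochondrial reductase, stood at 28.1, 28.8 and 31.2 CPM in the libraries labelled TLE3 KO and 26.2, 27.1 and 24.5 CPM in controls. The groups did not overlap for either gene. The log2 fold change of Txnrd2 was 0.18 (95% interval 0.03 to 0.33; adjusted p 0.103). Txnip averaged 570.4 ± 6.54 CPM in the libraries labelled TLE3 KO and 527.4 ± 23.7 CPM in controls (SD, n = 3 each; log2 0.11, adjusted p 0.132). The glutaredoxins, which use glutathione to reduce protein disulfides, had log2 fold changes of 0.03 for cytosolic Glrx (95% interval −0.13 to 0.19) and 0.08 for mitochondrial Glrx2 (−0.10 to 0.26).

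The balance of mitochondrial to cytosolic partner was compared within each library, where library scaling cancels. For the reductases the log2 ratio of Txnrd2 to Txnrd1 counts was −2.93, −2.81 and −2.65 in the libraries labelled TLE3 KO and −3.08, −3.11 and −3.29 in controls. Every library labelled TLE3 KO lay above every control, and the difference was 0.36 (SE 0.106), a ratio 1.29-fold higher. An exact two-sided permutation test gave p = 0.1 (0.3 adjusted over the 3 pairs compared); no smaller p than 0.1 is possible with these group sizes, so the design cannot pass 0.05. For the thioredoxins the difference in the log2 ratio of Txn2 to Txn1 was 0.09 (SE 0.067, exact permutation p = 0.2, adjusted 0.3), and for the glutaredoxins that of Glrx2 to Glrx was 0.04 (SE 0.082, exact permutation p = 0.7, adjusted 0.7). In both of these pairs the groups overlapped.

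**Figure D3:**
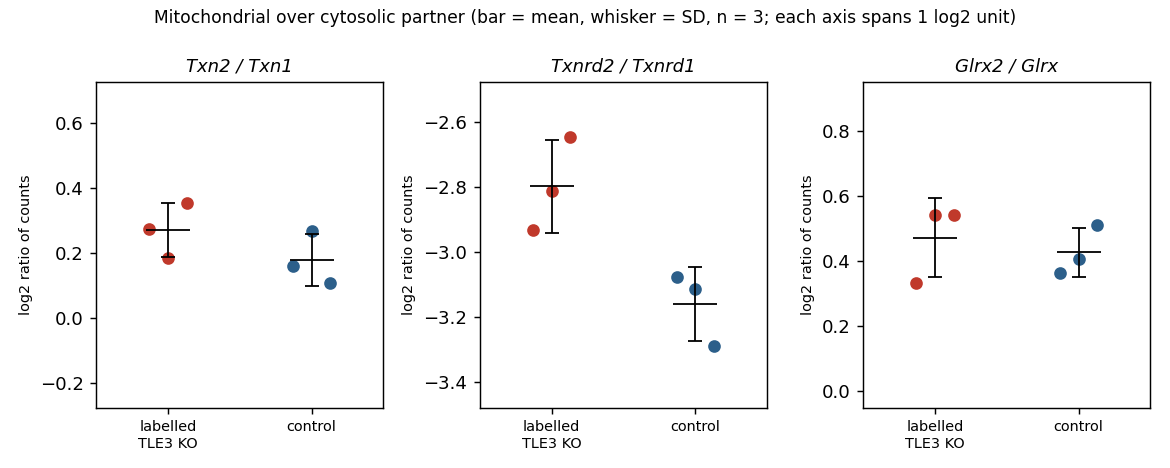
Log2 ratio of counts of the mitochondrial to the cytosolic partner in each library (points), with mean and SD (n = 3 per group), for thioredoxins, thioredoxin reductases and glutaredoxins. The reductase ratio is −2.93 to −2.65 in the libraries labelled TLE3 KO and −3.29 to −3.08 in controls, and the other 2 ratios overlap between groups.

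Of 4 pentose phosphate pathway genes, 1 rose. Taldo1, the transaldolase of the non-oxidative branch, stood at 142.3, 167.2 and 169.8 CPM in the libraries labelled TLE3 KO, against 138.0, 140.9 and 120.7 CPM in controls. No control reached the lowest library labelled TLE3 KO, though TLE3 KO 1 lay close to them. Taldo1 rose by 20.0% (log2 0.26, SE 0.074; edgeR adjusted p 0.0416), and its call was lost without TLE3 KO 2, TLE3 KO 3, control 1 or control 3 (adjusted p 0.0777 to 0.180). Of its 50-base stretches 10.9% occur in another gene's transcripts. Tkt, the transketolase of the same branch, stood at 655.7, 659.8 and 687.7 CPM in the libraries labelled TLE3 KO and 612.2, 619.8 and 557.0 CPM in controls. Its groups did not overlap, but Tkt was not called (log2 0.16, 95% interval 0.05 to 0.28; adjusted p 0.0591), except with DESeq2 (adjusted p 0.0390) or without control 2 (0.0302).

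Of the NADPH-producing oxidative branch, neither gene was called. G6pdx, the entry enzyme, stood at 250.5, 255.7 and 273.9 CPM in the libraries labelled TLE3 KO and 309.3, 298.4 and 257.6 CPM in controls (log2 −0.15, 95% interval −0.29 to −0.005; edgeR adjusted p 0.166). TLE3 KO 3 and control 3 overlapped, and without control 3 the log2 fold change was −0.22 and the gene passed the threshold (adjusted p 0.0146). Exons of G6pdx overlap those of Ikbkg on the other strand, which fell (log2 −0.20, adjusted p 0.0303). Pgd, the following NADPH-producing step, averaged 324.4 ± 9.62 CPM in the libraries labelled TLE3 KO and 345.9 ± 22.4 CPM in controls (SD, n = 3 each; log2 −0.09, adjusted p 0.277). Control 3 was the lowest control for each of the 4 genes, as it was for the summed adipocyte markers, whose part in these values was not tested.

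The methionine sulfoxide reductases, which repair oxidized methionine in proteins, were not called. Msra stood at 40.7, 48.6 and 47.1 CPM in the libraries labelled TLE3 KO and 39.8, 44.3 and 37.2 CPM in controls (log2 0.17, 95% interval −0.001 to 0.35; edgeR adjusted p 0.183). The mitochondrial Msrb2, at 2.03 ± 0.661 CPM in the libraries labelled TLE3 KO and 2.26 ± 0.237 CPM in controls (SD, n = 3 each), had an interval from −0.66 to 0.39.

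**Figure D4:**
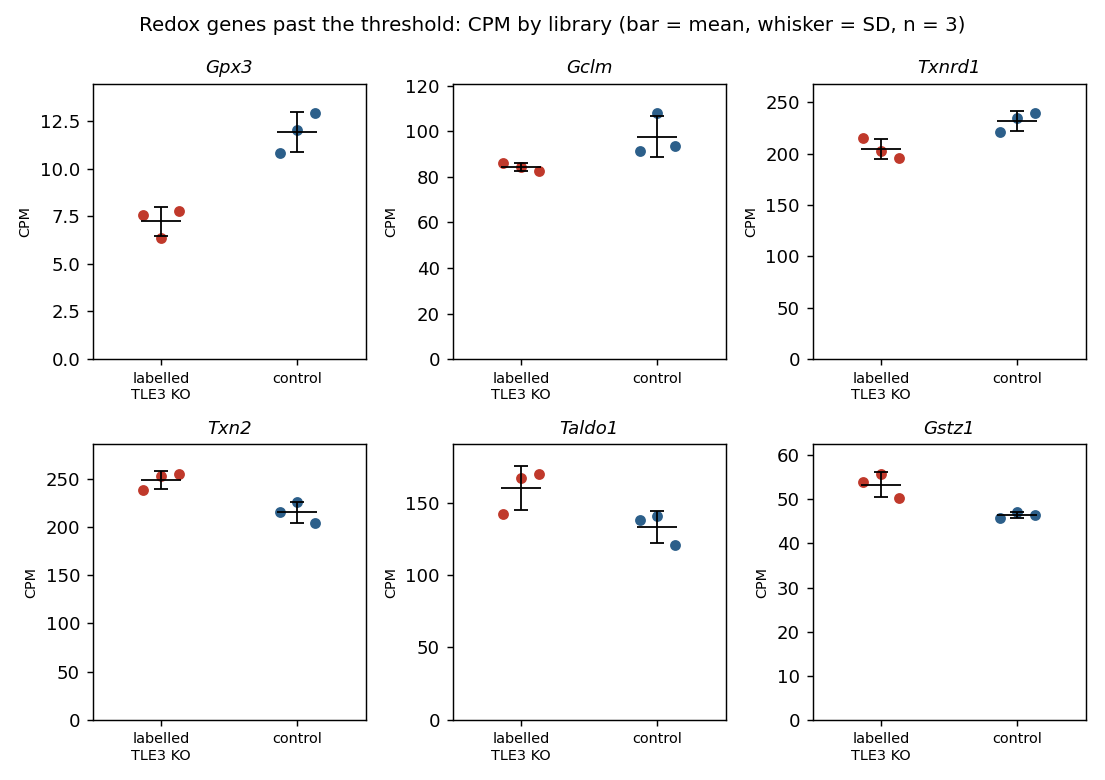
CPM of the 6 redox genes past the threshold in each library (points), with mean and SD (n = 3 per group). Gpx3, Gclm and Txnrd1 lie lower, and Txn2, Taldo1 and Gstz1 higher, in every library labelled TLE3 KO than in any control.

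Further genes of the same pathways, outside the group, gave the wider setting. Of 99 listed, 88 were tested, and 10 rose and 8 fell (20.5%, beside 12.3% of all genes), with a median log2 value of −0.02. Without TLE3 KO 2, TLE3 KO 3, control 1 or control 3, the further genes that rose numbered 5, 2, 4 and 6. Those that fell numbered 4 without TLE3 KO 2 or TLE3 KO 3 and 5 without control 3. All genes called in these fits, in the order first named, numbered 962, 621, 976 and 1068, beside 1629 with every library. Among 14 genes that control NRF1 and NRF2, 0 rose and 2 fell: Maff, a small MAF partner of NRF2, and Sqstm1, the autophagy receptor that binds KEAP1. Maff stood at 31.0, 30.3 and 29.1 CPM in the libraries labelled TLE3 KO, against 35.6, 40.6 and 41.1 CPM in controls, and fell by 0.38 on the log2 scale (SE 0.067, edgeR adjusted p 0.00562). Sqstm1 stood at 346.4, 325.4 and 332.4 CPM in the libraries labelled TLE3 KO, against 404.8, 399.5 and 414.2 CPM in controls, and fell by 0.28 (SE 0.042, adjusted p 0.00225). Both genes were called in every fit without a library, and their groups did not overlap.

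Among 19 further NRF2 targets 2 rose and 1 fell. Hmox1, which degrades heme, stood at 190.9, 160.3 and 177.9 CPM in the libraries labelled TLE3 KO, against 194.8, 256.3 and 256.6 CPM in controls. TLE3 KO 1 and control 1 lay close to each other. Hmox1 fell by 0.42 on the log2 scale (SE 0.098, edgeR adjusted p 0.0191), and its call was lost without TLE3 KO 2, TLE3 KO 3 or control 3 (adjusted p 0.0529 to 0.0761). The aldo-keto reductase genes Akr1b3 (1.21-fold) and Akr1b8 (1.14-fold) rose; the call for Akr1b3 was lost without TLE3 KO 3 or control 1, and that for Akr1b8 without TLE3 KO 1, TLE3 KO 3, control 1 or control 3.

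Of 20 further genes listed under glutathione, 3 rose and 2 fell. Oplah, which returns 5-oxoproline from glutathione breakdown to glutamate, stood at 131.0, 127.5 and 142.7 CPM in the libraries labelled TLE3 KO, against 107.9, 111.6 and 100.3 CPM in controls. Its groups did not overlap, and it rose 1.26-fold (edgeR adjusted p 0.00434). Ptges2 (1.21-fold) and Slc25a39, which carries glutathione into mitochondria (1.13-fold), rose, and Ggt5 (log2 −0.48) and Ggt7 (−0.37), of the family that cleaves extracellular glutathione, fell. The call for Ggt7 was lost without any 1 library, and that for Slc25a39 without any 1 library except control 2. The call for Ptges2 was lost without TLE3 KO 3, and that for Ggt5 without any library labelled TLE3 KO, without control 3 and with DESeq2 (adjusted p 0.0818).

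Among 20 further genes of the thioredoxin system and its relatives 1 rose and 2 fell. Txndc5, a disulfide isomerase of the endoplasmic reticulum, stood at 191.3, 195.0 and 194.1 CPM in the libraries labelled TLE3 KO, against 228.5, 222.2 and 226.2 CPM in controls. The libraries within each group lay close together, and it fell by 0.22 on the log2 scale (SE 0.038, edgeR adjusted p 0.00439). Arrdc4, a relative of Txnip, fell (log2 −0.34, adjusted p 0.0158), and Glrx5, a mitochondrial glutaredoxin of iron-sulphur cluster assembly, rose 1.17-fold (adjusted p 0.0358). Arrdc4 was not called without TLE3 KO 2, TLE3 KO 3 or control 1, nor Glrx5 without any 1 library except TLE3 KO 1.

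In NADPH supply 4 of 15 further genes rose and 1 fell. H6pd, which makes NADPH inside the endoplasmic reticulum, stood at 57.2, 52.8 and 56.0 CPM in the libraries labelled TLE3 KO, against 68.9, 66.1 and 69.6 CPM in controls, and fell by 0.30 on the log2 scale (SE 0.048, edgeR adjusted p 0.00325). Rpe, an epimerase of the non-oxidative pentose phosphate branch, stood at 66.3, 66.6 and 68.7 CPM in the libraries labelled TLE3 KO, against 57.0, 57.1 and 52.3 CPM in controls, and rose 1.21-fold (adjusted p 0.00571). For both genes the groups did not overlap and the call held without any 1 library. Pgls, the lactonase of the oxidative branch (log2 0.26), Nadk, which makes NADP (1.17-fold), and Mthfd2, of the mitochondrial folate cycle (1.11-fold), also rose; Mthfd2 was not called with DESeq2 (adjusted p 0.0653) or without any 1 library, Pgls was not called without TLE3 KO 2 or TLE3 KO 3, and Nadk was not called without TLE3 KO 2, TLE3 KO 3 or control 1.

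**Figure D5:**
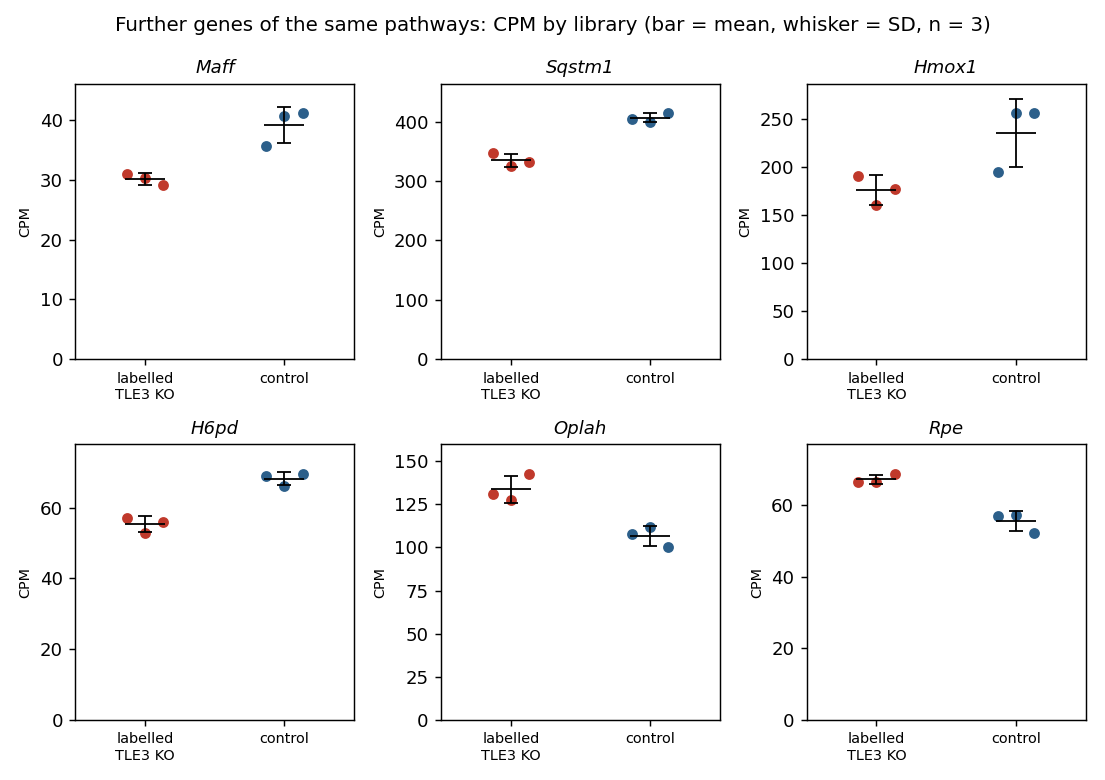
CPM in each library (points), with mean and SD (n = 3 per group), of 6 further genes of the same pathways. Maff, Sqstm1, Hmox1 and H6pd lie lower and Oplah and Rpe higher in every library labelled TLE3 KO than in any control; for Hmox1 the nearest libraries stand at 190.9 and 194.8 CPM.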

How the data were processed

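Poly(A) RNA from 6 libraries was sequenced from stranded libraries, per the labels' protocols. The authors deposited counts per gene as whole numbers and, beside them, FPKM rounded to whole numbers, treated here as a score and used only to order genes per length. The build mm9 and the programs Novoalign 2.8, Picard and DESeq2 are named, without roles, per the submitters' processing notes. How reads were assigned to genes (program, annotation, strand) is not given in the sources used here. Every gene in the table reached 10 counts or more in some library.

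Counts were analysed with edgeR 4.0.16 (R 4.3.3): the package's expression filter by group left 13192 of 13962 genes, libraries were scaled by TMM, and the quasi-likelihood test used the group alone, with Benjamini-Hochberg adjustment over all tested genes. Rose, fell and called mean an adjusted p under 0.05. SE values of single genes come from the fold change and its F statistic. Those of partner ratios come from the spread of the library values within each group. Ratios of partners used counts plus 0.5. Scripts were tested on simulated data. DESeq2 1.42.0, limma-voom (limma 3.58.1), other scalings and filters, the replicate number as a block and leaving out each library were tried. Replicates of a group were not copies of 1 library: their counts differed beyond sampling noise in each pair, with a chi-square of 2.88 to 7.53 per degree of freedom. Members and lists were chosen with earlier results of these data known. All 41 members found are accounted for. Called members and called further pathway genes are named, while only some of the called cell markers are. Exon overlaps and shared 50-base stretches come from GENCODE M21, on another build than the authors', so its coordinates are not printed; promoter coordinates are RefSeq's own.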

Additional observations from a re-analysis of the deposited data

How the results depend on the processing

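Over 13 other settings, 0 of the called genes among the members and the further pathway genes changed sign; 12 members that were not called did so in at least 1 setting, all while not called. Of the 6 called members, 1 (Gpx3) was called in all 6 fits without a library, 4 with DESeq2 and 5 with limma-voom; 6 of 35 uncalled members (Gpx4, Mgst1, Mgst3, Srxn1, G6pdx and Tkt) were called in at least 1 setting. Without 1 library, which leaves fewer samples to test with, members that rose numbered 0 to 6 and members that fell 1 to 2, further pathway genes that rose 2 to 10 and that fell 4 to 9, and all genes called 621 to 1895; these last numbered 962 without TLE3 KO 2, 621 without TLE3 KO 3, 976 without control 1 and 1068 without control 3. The median log2 fold change of the members ran from 0.02 to 0.04 over all 13. With the replicate number as a block 5 members rose and 3 fell, with Gpx4 (edgeR adjusted p 0.0314) and Mgst3 (0.0238) added. In that fit 1809 genes were called in all. Deviations of same-numbered libraries correlated at −0.04, 0.19 and 0.03. TLE3 KO 2 and TLE3 KO 3 correlated best with the control of their own number, and TLE3 KO 1 with control 3 (0.23). With 3 libraries per group, these correlations cannot decide whether the numbers pair the samples. Adding 5 counts in place of 0.5 left the reductase ratio difference at 0.36; without 1 library it was 0.29 to 0.43. Members near 1 or 2 CPM have intervals too wide to show changes of the size seen elsewhere in the group.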
